A study of Mus musculus with 8 samples.

Results

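The genes described here are 37 factors that shorten poly(A) tails, remove mRNA caps, hold mRNAs in store or bind poly(A) tails, chosen by symbol from a fixed list of names. They are 37 of the 48440 genes in the deposited tables, and each symbol matched 1 gene. Together they have 186 annotated transcripts, of which 101 are protein coding, and 13 of the genes have a single transcript. By role they are 9 subunits of the CCR4-NOT complex, 3 members of the PAN2-PAN3 and PARN group, 6 BTG and TOB genes, 7 decapping genes, 9 storage genes and 3 poly(A) binding genes.

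RNA was sequenced from 8 mouse libraries in 4 groups of 2. Immature oocytes held at the germinal vesicle stage are called GV, and oocytes arrested at metaphase II are called MII. ESC are mouse embryonic stem cells, and EpiC are epiblast cells made from ESC in vitro. GV oocytes came from mice given 5 units of PMSG, a gonadotropin that drives follicle growth, 48 h before, and were collected in MEM with 2 µM milrinone, which blocks meiotic resumption. The MII labels repeat this GV protocol and give no maturation step, so how the MII oocytes matured cannot be read from the labels. ESC grew in Knockout DMEM with 15% fetal bovine serum, LIF, PD0325901 (a MEK inhibitor) and CHIR99021 (a GSK3 inhibitor). EpiC were plated from ESC for 24 h, lost LIF and inhibitors, and were collected about 56 h later. No strain, genotype, age or number of pooled oocytes is given, and no label ties the replicates to separate animals or cultures. The p-values therefore measure only the spread among these samples, which may be technical.

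A poly(A) tail protects an mRNA and helps it to be translated. The PAN2-PAN3 and CCR4-NOT complexes shorten the tail, after which the DCP1-DCP2 enzyme removes the cap and XRN1 digests the body of the mRNA. Growing oocytes instead keep many mRNAs in store with short tails, bound by proteins such as YBX2, ZAR1, DDX6 and LSM14. Transcription is off during meiotic maturation, and many stored mRNAs are then degraded while others gain a tail and are translated. Cytoplasmic polyadenylation elements (CPEs), U-rich motifs in the 3′ UTR close to the polyadenylation signal, mark many of the mRNAs that gain a tail.

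Total estimated counts ran from 47463546 to 196788239 per library, with replicate 2 the deeper one in every group. The 10 oocyte markers summed to 24510 to 35350 TPM in oocyte libraries and 2.57 to 11.2 TPM in cultured cells. The 8 pluripotency markers summed to 924.8 to 2216 TPM in cultured cells and 176 to 299.5 TPM in oocytes, where Nanog was at or near 0. Most of the oocyte sum was Esrrb in GV (145.7 and 189.8 TPM) and Lin28a in MII (272 and 225.2 TPM). These levels exceeded those of Esrrb in EpiC (4.71 and 4.06 TPM) and of Lin28a in ESC (27.7 and 8.28 TPM). The 12 cumulus and granulosa markers summed to 198.7 TPM in GV replicate 2 against 62.2 to 68.7 TPM in the other oocyte libraries and 21.4 to 50.6 TPM in cultured cells, and Inha was 104.5 TPM in GV replicate 2 against 4.66 TPM in GV replicate 1. The 10 fibroblast markers summed to 146.9 and 64.5 TPM in EpiC, mostly Tagln, and to at most 4.44 TPM elsewhere. Gm42418, a gene model that overlaps ribosomal RNA sequence, took 14.7% and 22.7% of counts in replicate 2 of ESC and EpiC and at most 3.03% elsewhere. Without Gm42418 and mitochondrial genes, as many of the 37 genes were called in each direction in every comparison of gene levels below. The part of the cumulus, granulosa and fibroblast marker differences in the results below was not tested.

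The CPE was searched as TTTTAT or TTTTAAT on the transcript strand in the last 100 bases of the 3′ UTR of the most abundant coding transcript of each gene (GENCODE M21, GRCm38), with the polyadenylation hexamer as AATAAA or ATTAAA in the last 40 bases. That transcript had the highest mean TPM over all 8 libraries among those with a complete annotated 3′ end. It need not be the most abundant one in oocytes alone. TTTTAAT can overlap AATAAA, as it does in 3 of the sites shown. A window of this length was there for 36 of the 37 genes, all but Cnot8, and 10 of the 36 (27.8%) held a CPE, against 18.6% of 15765 coding genes tested. The 10 sites are printed because genes with and without a CPE are compared below. Each holds 30 bases, 5′ to 3′, with CPE and hexamer in capitals.
Btg4 (chr9:51119805-51119834, plus strand): ccctTTTTATgtctttttaaaagtttgatt
Btg3 (chr16:78359907-78359936, minus strand): tctaTTTTATgtcattatttagaagaattg
Pan2 (chr10:128321324-128321353, plus strand): aAATAAAagtatTTTTATctcattagaaaa
Pan3 (chr5:147548467-147548496, plus strand): tattTTTTAATAAAgaattgcagaAATAAA
Dcp1a (chr14:30527017-30527046, plus strand): atttTTTTAATAAAatttcaaaaccaagtt
Patl1 (chr19:11945001-11945030, plus strand): ttgtTTTTAATgttttccattatacttgga
Lsm14a (chr7:34344662-34344691, minus strand): gtgtTTTTAATAAAggccatggAATAAAga
Cnot3 (chr7:3661080-3661109, plus strand): tgAATAAAtagTTTTATatgacggctggca
Cnot1 (chr8:95719496-95719525, minus strand): ttgaTTTTATatatgtgagtacactgatgc
Ybx2 (chr11:69941540-69941569, plus strand): gccaTTTTATgaactgtcatgtgccacctg

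For contrast, the next 4 genes were lower in MII and had a hexamer but no CPE in the window. Their 30 bases around the hexamer are printed with the hexamer in capitals. They are examples among the 8 lower genes without a CPE in the window. Another 10 genes without one were higher in MII, and their sites are not printed.
Pabpc1l (chr2:164050505-164050534, plus strand): tttgctttatatATTAAAaaatgctgcaaa
Eif4e1b (chr13:54788427-54788456, plus strand): tttctgtatctaAATAAAcacttctggaac
Patl2 (chr2:122120115-122120144, minus strand): ggccttgtatttAATAAAagtctaatctgg
Tob2 (chr15:81848276-81848305, minus strand): ttttaagtttgtATTAAAagcatgatatat

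Between GV and MII oocytes, the mRNAs of the CCR4-NOT nucleases, Pan2, Pan3 and 6 of 7 decapping genes rose on TMM-scaled counts, while Cnot10, Cnot1, Tob1, Tob2, Ybx2, Patl2, Eif4e1b, Ddx6, Pabpc1 and Pabpc1l fell. Of the 37 genes, 18 were higher in MII, where 17.4% of all 25045 genes tested were, and 10 were lower, against 22.2%, so 28 were called where 39.6% of all genes were. With library size alone 12 were higher and 15 lower, and with limma on log2(TPM + 1) 11 and 14. Of all genes called, 14.1% were higher in MII with library size alone and 22.8% with limma, against 43.9% with TMM. The median log2 fold change was 0.83 over the 37 genes and −0.53 over all genes tested. Every one of the 37 genes passed the filter on low counts. By role, the genes that rose were 4 of 9 in CCR4-NOT, 2 of 3 in the PAN2-PAN3 and PARN group, 3 of 6 BTG and TOB genes, 6 of 7 decapping genes, 3 of 9 storage genes and 0 of 3 poly(A) binding genes. Those that fell were 2, 0, 2, 0, 4 and 2 in the same order. At an unadjusted p under 0.05, edgeR gave 1 lower gene in each of the roles with 0 that fell, and 0 higher poly(A) binding genes. DESeq2 called 0 and 1 lower in the PAN2-PAN3 and PARN group and among decapping genes and 0 poly(A) binding genes higher, and limma on log2(TPM + 1) called 1, 0 and 0.

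Fold changes here are on TMM-scaled counts, which set the bulk of genes level, while TPM is each transcript's share of all RNA listed after division by length. The 100 most abundant genes held 43.5% and 44% of TPM in MII and 27.4% and 29% in GV, and the TMM factors were 0.42 and 0.4 in MII against 1.07 and 1.15 in GV. A gene with level TPM in GV and MII therefore has a log2 fold change above 0. On TPM itself, 17 of the 37 genes had both MII libraries above both GV libraries, 18 had both below and 2 overlapped, against 17.3% above and 56.2% below over all genes tested. When libraries were scaled by their size alone, 14.1% of called genes were higher in MII, and with limma on log2(TPM + 1) 22.8% were, against 43.9% with TMM. These are bulk libraries, so fewer cells and less RNA per cell cannot be told apart, and neither scale gives an amount per oocyte.

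**Figure D1:**
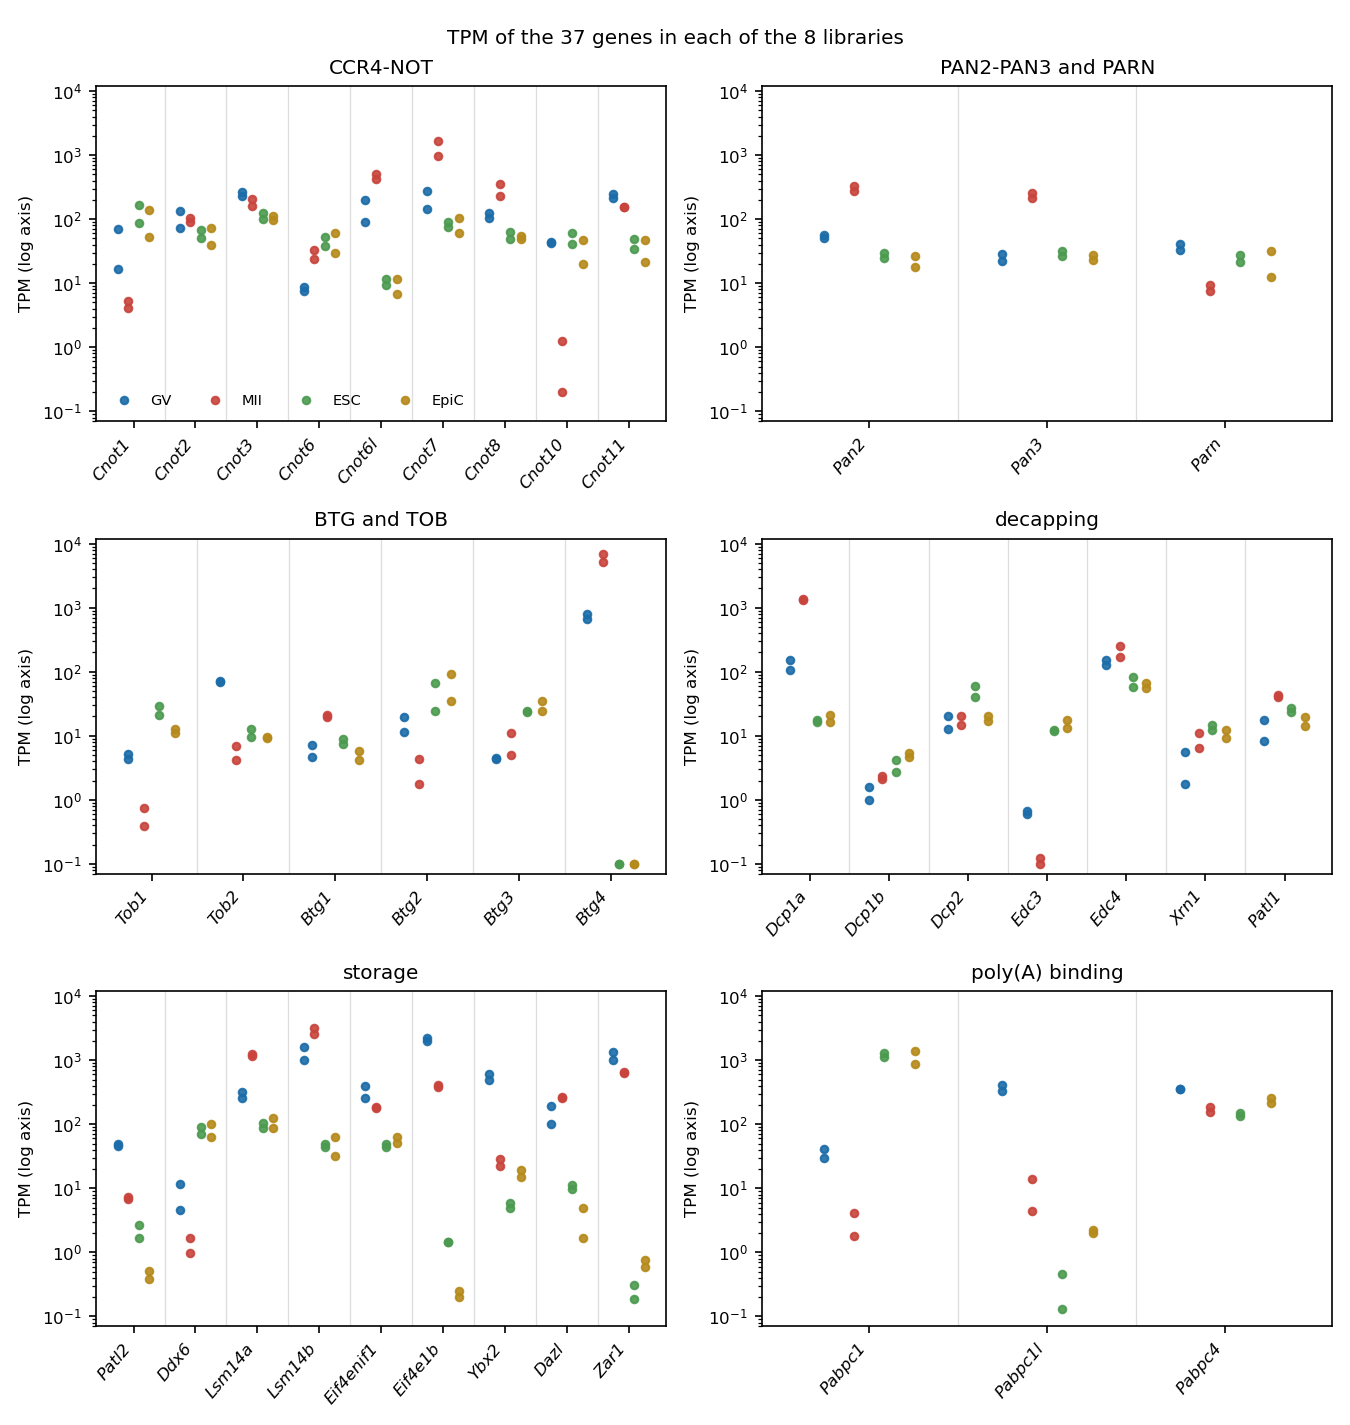
TPM on a log axis for each of the 37 genes, 1 panel per role, with 1 point per library and colours for GV, MII, ESC and EpiC; values under 0.1 TPM are drawn at 0.1. Btg4 lies at 676 to 6766 TPM in oocytes and at 0 in cultured cells, while Pabpc1 lies at 1.81 to 41.4 TPM in oocytes and 877 to 1384 TPM in cultured cells.

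The nucleases of CCR4-NOT rose together. Cnot7, a Caf1-type deadenylase, was 278 and 143 TPM in GV, 1683 and 982 in MII, 89 and 74.8 in the ESC libraries, and 105 and 60.1 in EpiC. Both MII libraries lay far above the others, and its log2 fold change from GV to MII was 3.82 ± 0.5 (SE, n = 2 per group, edgeR adjusted p = 0.000644). Its close paralogue Cnot8 was 103 and 125 TPM in GV, 358 and 231 in MII, and 48.9 to 63 in cultured cells, with a change of 2.52 ± 0.36 (edgeR adjusted p = 0.000798). Cnot6l, a Ccr4-type deadenylase, was 202 and 90.9 TPM in GV, 430 and 512 in MII, and 6.91 to 11.7 in cultured cells. It changed by 2.79 ± 0.5 (edgeR adjusted p = 0.00205). Cnot6, its paralogue, rose by 2.94 ± 0.41 (edgeR adjusted p = 0.000739), from 8.86 and 7.45 TPM to 32.9 and 23.9 TPM, against 29.9 to 61.6 TPM in cultured cells.

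Of the other 5 subunits, Cnot10 and Cnot1 fell and Cnot11, Cnot2 and Cnot3 did not pass the test. Cnot10, which forms a module with Cnot11, was 44.6 and 43.2 TPM in GV and 0.2 and 1.26 TPM in MII, against 19.6 to 61.5 in cultured cells. It fell by 4.68 ± 0.8 on the log2 scale (edgeR adjusted p = 0.00167), with MII alone set apart from the other groups. Its partner Cnot11 was 248 and 212 TPM in GV and 153 and 155 in MII, and did not pass the test (log2 fold change 0.61 ± 0.33, edgeR adjusted p = 0.176). Cnot1, the scaffold of the complex, was 69.9 and 16.7 TPM in GV, 5.23 and 4.05 in MII, 166 and 88.6 in the ESC libraries, and 140 and 52 in EpiC. Its GV libraries differed from each other by more than the lower one differed from MII. Cnot1 fell by 2.04 ± 0.65 (edgeR adjusted p = 0.032), and the call was lost without GV replicate 1 (log2 fold change −0.88, adjusted p = 0.265), without either MII library, and with relative log expression scaling (adjusted p = 0.0634). Cnot2 and Cnot3, which form the other end of the complex, gave 0.83 ± 0.4 and 0.79 ± 0.34 and did not pass. Cnot1 thus made up 5.29% and 1.71% of the summed TPM of the 9 CCR4-NOT genes in GV, 0.18% in both MII libraries, and 13.8% to 24.8% in cultured cells.

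Both subunits of PAN2-PAN3 rose, and the rise of Pan3 had the largest log2 fold change among the 18 rising genes. Pan3, the adaptor that binds poly(A) binding protein and the tail, was 22.2 and 29 TPM in GV and 211 and 258 in MII, against 23.3 to 32 in cultured cells. Its coding transcripts alone were 5.54 and 11.6 TPM in GV, 104 and 154 in MII, and 4.6 to 7.68 in cultured cells. Pan2, the nuclease, was 56.7 and 51.4 TPM in GV and 279 and 324 in MII, against 17.6 to 30 in cultured cells. Pan3 changed by 4.62 ± 0.41 and Pan2 by 3.65 ± 0.36 (edgeR adjusted p = 0.000518 for both), with no overlap between MII and any other group. Parn, a separate deadenylase, was 40.9 and 32.9 TPM in GV and 7.58 and 9.23 in MII, yet did not pass on TMM-scaled counts (−0.97 ± 0.4, edgeR adjusted p = 0.0856).

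BTG and TOB proteins bind the Caf1-type nuclease and bring it to mRNAs, and the family moved in both directions. Btg4, the oocyte member, was 676 and 793 TPM in GV, 6766 and 5095 in MII and 0 in all 4 cultured libraries. It rose by 4.16 ± 0.44 (edgeR adjusted p = 0.000599), and its share of the family's summed TPM went from 87.8% and 88% in GV to 99.5% and 99.3% in MII. Btg1 was 4.63 and 7.28 TPM in GV and 19.6 and 21.4 in MII, a rise of 2.93 ± 0.42 (edgeR adjusted p = 0.000813). Btg3 rose by 2.06 ± 0.66 (edgeR adjusted p = 0.0323), but its TPM of 4.47 and 4.26 in GV and 10.8 and 5.08 in MII shows how much MII replicate 1 carries, and without that library the change was 0.74 (adjusted p = 0.412). Tob2 was 69.2 and 71.8 TPM in GV and 4.21 and 6.98 in MII, below the 9.36 to 12.6 of cultured cells, and fell by 2.49 ± 0.39 (edgeR adjusted p = 0.00108). Tob1 fell by 1.88 ± 0.47 (edgeR adjusted p = 0.0109), from 4.35 and 5.17 TPM to 0.39 and 0.75 TPM. Btg2 was 11.6 and 19.8 TPM in GV and 1.78 and 4.28 in MII and did not pass (−1.21 ± 0.72, edgeR adjusted p = 0.216).

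Decapping genes rose with 1 exception that did not pass. Dcp1a, the activator of the decapping enzyme, was 152 and 108 TPM in GV and 1303 and 1347 in MII, against 16.4 to 21.3 in cultured cells. It rose by 4.52 ± 0.39 (edgeR adjusted p = 0.000518), the largest rise among the 7 genes. Dcp2, the enzyme itself, was 20.5 and 12.6 TPM in GV, 20.2 and 14.6 in MII, 59 and 40.2 in the ESC libraries, and 20.1 and 17 in EpiC. Its TPM ranges in GV and MII overlap, so its rise of 1.6 ± 0.39 (edgeR adjusted p = 0.00938) belongs to the TMM scale, and it was 0.09 with limma on log2(TPM + 1) (adjusted p = 0.984).

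The paralogue Dcp1b was 1 and 1.56 TPM in GV and 2.38 and 2.13 in MII and rose by 1.85 ± 0.54 (edgeR adjusted p = 0.023). Dcp1a made up 98.6% to 99.8% of the summed TPM of Dcp1a and Dcp1b in oocytes and 75.6% to 86.7% in cultured cells. Edc4, a decapping scaffold, was 126 and 152 TPM in GV and 170 and 253 in MII and rose by 1.77 ± 0.41 (edgeR adjusted p = 0.0077). Both calls were lost with library size alone (0.41 and 0.32), with limma on log2(TPM + 1) (0.52 and 0.58) and without GV replicate 1 or MII replicate 2, and that of Dcp1b also without MII replicate 1. Patl1, which bridges deadenylation and decapping, rose by 2.86 ± 0.39 (edgeR adjusted p = 0.000705), from 17.6 and 8.38 TPM to 42.6 and 40.6 TPM. Xrn1, the exonuclease after decapping, rose by 3.11 ± 0.5 (edgeR adjusted p = 0.00123), from 5.65 and 1.76 TPM to 11.2 and 6.38 TPM, and lost the call with limma on log2(TPM + 1) (1.15, adjusted p = 0.098). Edc3 was at 0.6 and 0.67 TPM in GV and 0.02 and 0.13 in MII, against 11.9 to 17.3 in cultured cells (−1.65 ± 0.66, edgeR adjusted p = 0.0766).

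Storage factors split into a rising and a falling set. The LSM14 proteins pack repressed mRNAs with DDX6: Lsm14a was 325 and 253 TPM in GV and 1252 and 1162 in MII, a rise of 3.25 ± 0.4 (edgeR adjusted p = 0.000583). Lsm14b was 997 and 1598 TPM in GV and 2530 and 3210 in MII, of which coding transcripts held 593 and 784 TPM in GV and 1464 and 1731 in MII. Its rise of 2.34 ± 0.41 (edgeR adjusted p = 0.00189) fell short with library size alone (0.9, adjusted p = 0.128) and with limma on log2(TPM + 1) (1.17, adjusted p = 0.0632). Dazl, a germ cell activator and repressor of translation, was 196 and 101 TPM in GV and 263 and 255 in MII, a rise of 1.98 ± 0.47 (edgeR adjusted p = 0.00908). That call was lost under the same 2 scalings and without GV replicate 2 (1.61, adjusted p = 0.0651).

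Ybx2, the abundant Y-box protein that stabilises stored mRNAs, was 614 and 486 TPM in GV and 22.3 and 28.7 in MII. It fell by 3.16 ± 0.39 (edgeR adjusted p = 0.000565), the steepest fall among the 9 storage genes. Patl2, the oocyte paralogue of Patl1, was 48.8 and 45.9 TPM in GV and 6.89 and 7.38 in MII and fell by 1.57 ± 0.36 (edgeR adjusted p = 0.00719). Eif4e1b, an oocyte cap-binding protein, was 2008 and 2192 TPM in GV and 406 and 376 in MII, with a fall of 1.29 ± 0.38 (edgeR adjusted p = 0.0229) that missed the threshold with relative log expression scaling (−1.06, adjusted p = 0.0653) and without GV replicate 2 or either MII library.

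Ddx6, the helicase at the centre of these particles, was already low in oocytes, at 11.6 and 4.65 TPM in GV and 0.99 and 1.69 TPM in MII against 63.6 to 102 TPM in cultured cells. Its fall of 1.4 ± 0.47 (edgeR adjusted p = 0.0408) was lost without GV replicate 1 (−0.79, adjusted p = 0.223), without MII replicate 1, without either ESC library, with the compared groups alone, with relative log expression scaling and with DESeq2 (adjusted p = 0.0538). Zar1, needed for the storage particles of growing oocytes, was 1011 and 1330 TPM in GV and 633 and 655 in MII (0.29 ± 0.44, edgeR adjusted p = 0.637). Eif4enif1, the cap-binding partner known as 4E-T, was 395 and 255 TPM in GV and 188 and 181 in MII (0.34 ± 0.34, edgeR adjusted p = 0.459). In both genes each MII library lay below each GV library in TPM while the fold change on TMM-scaled counts was slightly above 0, so no direction is drawn for them.

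Poly(A) binding genes did not rise. Pabpc1l, the oocyte and embryo poly(A) binding protein, was 329 and 409 TPM in GV and 4.47 and 14.1 in MII, a fall of 3.97 ± 0.78 (edgeR adjusted p = 0.00335). Pabpc1, the somatic form, fell by 2.55 ± 0.56 (edgeR adjusted p = 0.00583), from 29.6 and 41.4 TPM to 1.81 and 4.08 TPM. Pabpc4 was 350 and 353 TPM in GV and 155 and 184 in MII (−0.13 ± 0.35, edgeR adjusted p = 0.817). The summed TPM of the 3 genes was 709 and 803 in GV and 161 and 202 in MII, while that of the decapping genes was 323 and 285 in GV and 1549 and 1664 in MII. Of the decapping sum, Dcp1a alone held 152 and 108 TPM in GV and 1303 and 1347 in MII. Of Pabpc4, coding transcripts held only 120 and 129 TPM in GV and 43 and 57 in MII.

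**Figure D2:**
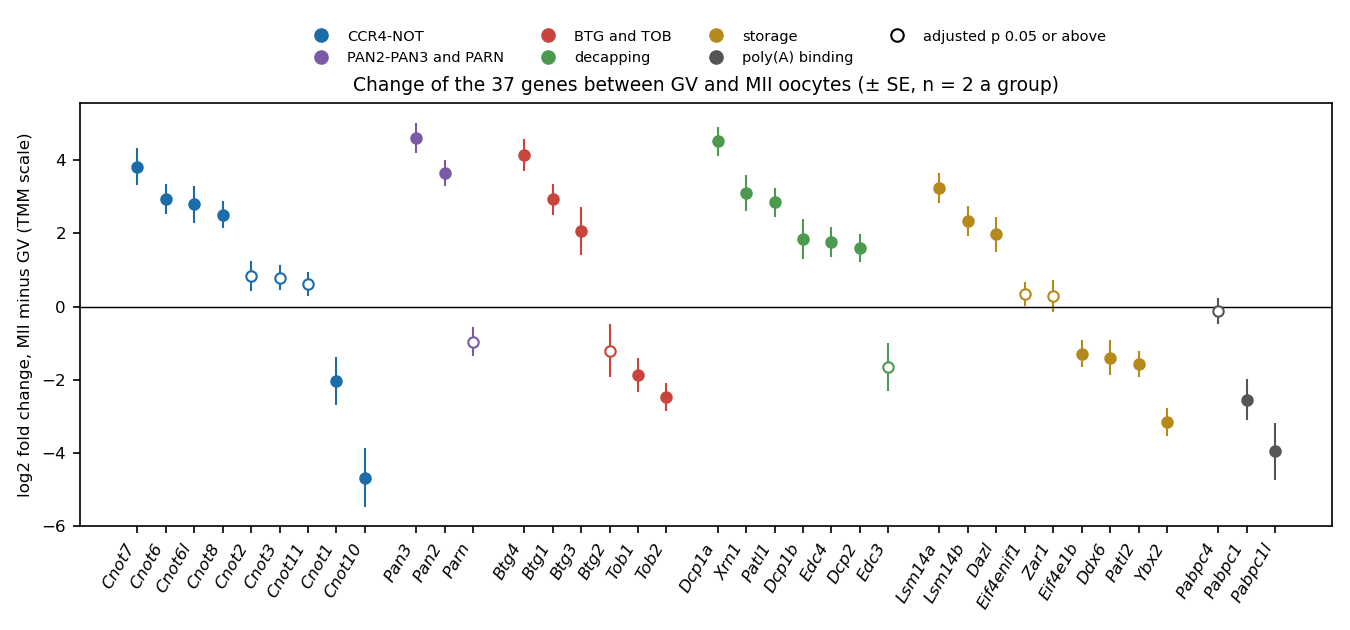
Log2 fold change from GV to MII (MII minus GV, TMM-scaled counts) of each of the 37 genes by role, with bars of ± SE from 2 libraries per group; open points have an adjusted p of 0.05 or above. CCR4-NOT nucleases, PAN2-PAN3 and most decapping genes lie above 0, while Cnot10, Ybx2 and Pabpc1l lie at −4.68, −3.16 and −3.97.

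Of the 2939 coding genes with a CPE in the window, 44.1% were called higher in MII and 13.3% lower, with a median log2 fold change of 1.19. Of the 12826 coding genes without one, 19.3% were called higher and 29.1% lower, with a median of −0.68. Of the 10 genes of the 37 with a CPE, 7 were higher, namely Btg3, Btg4, Dcp1a, Lsm14a, Pan2, Pan3 and Patl1. The 2 that were lower, Cnot1 and Ybx2, and Btg4 among the risers, had no hexamer in the last 40 bases of the annotated 3′ UTR, and Cnot3 did not pass. Of the 26 genes without a CPE in the window, 10 were higher, 8 were lower and 8 did not pass. The rising genes without a match in either this window or the last 200 bases include Cnot7 and Cnot6, whereas Cnot6l and Xrn1, which rose, and Pabpc1, which fell, held a match in the last 200 bases only. Pan2 held 3 matches in the window and Dcp1a 2. The match is a description of the annotated 3′ end, tail lengths were not measured, and no source used here says whether the libraries were made from poly(A)-selected RNA.

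**Figure D3:**
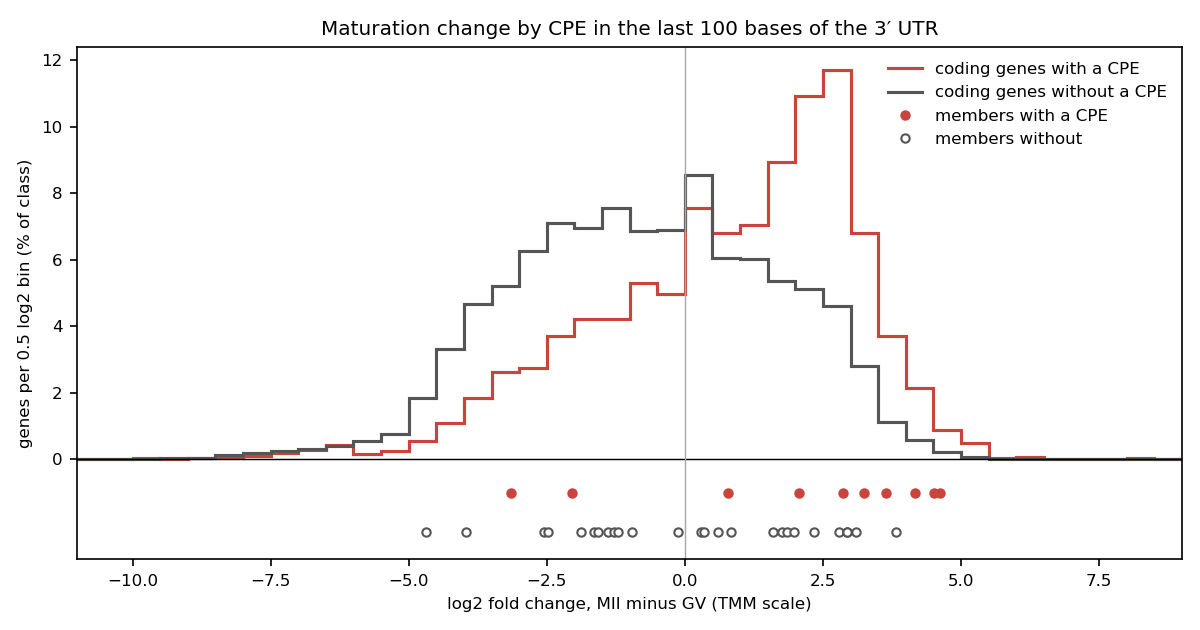
Distribution of the log2 fold change from GV to MII over coding genes with and without a CPE in the last 100 bases of the 3′ UTR, in bins of 0.5, as a percentage of each class, with the genes of the set as points under the axis. The medians are 1.19 with and −0.68 without a CPE, and 7 of the 10 filled points are genes called higher in MII.

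Between ESC and EpiC, Ybx2 rose and Eif4e1b and Patl2 fell. That is 1 of the 37 genes higher in EpiC, where 2.63% of all genes tested were, and 2 were lower, against 2.83%, with 5.46% of all genes called, so the share called is near that of all genes. With DESeq2 and with no count filter it was 3 higher and 4 lower, where more of all genes were called as well (counts in the closing section). The replicate block also gave 3 and 4. Its count over all genes is not given, so it is not read as a result about these genes. Ybx2 was 4.89 and 5.95 TPM in ESC and 19.6 and 15.2 in EpiC (1.77 ± 0.37, edgeR adjusted p = 0.0258). Eif4e1b was 1.43 and 1.45 TPM in ESC and 0.2 and 0.25 in EpiC (−3.04 ± 0.44, edgeR adjusted p = 0.00592), and Patl2 was 2.68 and 1.67 TPM in ESC and 0.52 and 0.38 in EpiC (−2.25 ± 0.38, edgeR adjusted p = 0.0108). All 3 are storage genes, but with so few calls no pattern by role is drawn. The Patl2 call was lost in 4 alternatives and the Ybx2 call in 5. None of the 3 calls was made when ESC and EpiC were fitted alone (adjusted p = 0.0622 to 0.103). Dcp2 gave −1.47 ± 0.39, from 59 and 40.2 TPM to 20.1 and 17 TPM without overlap, and missed the threshold (edgeR adjusted p = 0.0621). On TPM, both EpiC libraries lay above both ESC libraries for 7 of the 37 genes and below them for 8, against 21.6% and 22.2% of all genes, and the other 22 overlapped.

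Oocytes and cultured cells differed in the most abundant member of several of these families, but not of all. Against ESC, 20 of the 37 genes were higher in GV, where 28.3% of all genes tested were, and 9 were lower, against 31.3%, with 59.6% of all genes called. Against EpiC, 24 were higher in MII, against 28.5% of all genes, and 7 were lower, against 39.6%, with 68.0% of all genes called. The share of calls that were higher in MII against EpiC over all genes was 41.8% with TMM, 23.1% with library size alone and 29.1% with limma on log2(TPM + 1). In both comparisons 8 of 9 storage genes were higher in oocytes and Ddx6 was lower, while of CCR4-NOT 6 of 9 were higher. Ybx2 lost its call for MII against EpiC with library size alone (0.23, adjusted p = 0.589) and with limma on log2(TPM + 1) (0.52, adjusted p = 0.139). Cnot2 lost its call for GV against ESC in 8 of the 18 alternatives, among them DESeq2 (0.99, adjusted p = 0.0837), and for MII against EpiC with library size alone (0.13, adjusted p = 0.786) and limma (0.84, adjusted p = 0.119). Cnot3 lost its call for MII against EpiC with library size alone (0.54, adjusted p = 0.205), and Cnot7 and Pan2 lost theirs for GV against ESC without ESC replicate 2. In that comparison Cnot7 also lost its call with limma on log2(TPM + 1) (1.28, adjusted p = 0.0519). Pan2 also lost its call there with library size alone (0.90, adjusted p = 0.0511). The median log2 fold change over the 37 genes was 1.3 for GV against ESC and 2.76 for MII against EpiC, beside −0.51 and −1.23 over all genes tested. On TPM, both GV libraries lay above both ESC libraries for 22 genes and below them for 13, against 35.0% and 48.6% of all genes, and both MII libraries lay above both EpiC libraries for 22 and below them for 12, against 24.8% and 61.6%.

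Zar1, Btg4, Eif4e1b and Pabpc1l were each at most 2.24 TPM in cultured cells. Zar1 was 0.19 to 0.76 TPM there, and its log2 fold change was 12.44 ± 0.72 for GV against ESC (edgeR adjusted p = 6.59e-06). Btg4 had 0 counts in all 4 cultured libraries, so it was at least 20100-fold higher in GV than in ESC and at least 324000-fold higher in MII than in EpiC against a floor of 3 counts per library on TMM-scaled counts. With library size alone these bounds were 15300-fold and 88300-fold. For Eif4e1b the values were 10.56 ± 0.56 for GV against ESC (edgeR adjusted p = 5.61e-06) and 12.31 ± 0.6 for MII against EpiC (edgeR adjusted p = 3.64e-06). Pabpc1l gave 11.04 ± 1.07 for GV against ESC and 5.1 ± 0.83 for MII against EpiC. Dazl, present at 1.66 to 11.2 TPM in cultured cells, gave 4.12 ± 0.52 and 7.82 ± 0.62 in the same order.

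Some general factors were lower in oocytes. Pabpc1, at 877 to 1384 TPM in cultured cells, gave −5.13 ± 0.63 for GV against ESC (edgeR adjusted p = 0.000164) and −7.57 ± 0.7 for MII against EpiC (edgeR adjusted p = 2.51e-05). Ddx6 gave −3.04 ± 0.5 and −4.45 ± 0.53, and Edc3 −4.01 ± 0.7 and −5.99 ± 0.78, in the same order. Tob1 was lower in both comparisons, by 2.07 ± 0.46 and 2.9 ± 0.48, and its call against ESC was lost without GV replicate 1 (log2 fold change −1.62). Lower in GV than in ESC were also Cnot6, Dcp2, Xrn1, Btg3 and Dcp1b, with log2 fold changes from −2.27 to −1.4. The Dcp1b call (edgeR adjusted p = 0.0462) was lost in 11 of the 18 alternatives, with values down to −0.81 without GV replicate 1, and that of Btg3 without ESC replicate 1 or either GV library. Of the 5 genes, Dcp2 and Xrn1 were higher in MII than in EpiC on TMM-scaled counts, at 1.14 ± 0.38 and 1.15 ± 0.46, but were −0.71 and −0.69 with library size alone and −0.1 and −0.3 with limma on log2(TPM + 1), so no direction is drawn for them there. Cnot1 was not called between GV and ESC (−1.26 ± 0.63, edgeR adjusted p = 0.11) and was lower in MII than in EpiC (−2.86 ± 0.67, edgeR adjusted p = 0.00441). The call against EpiC was lost without MII replicate 2 (log2 fold change −2.53).

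**Figure D4:**
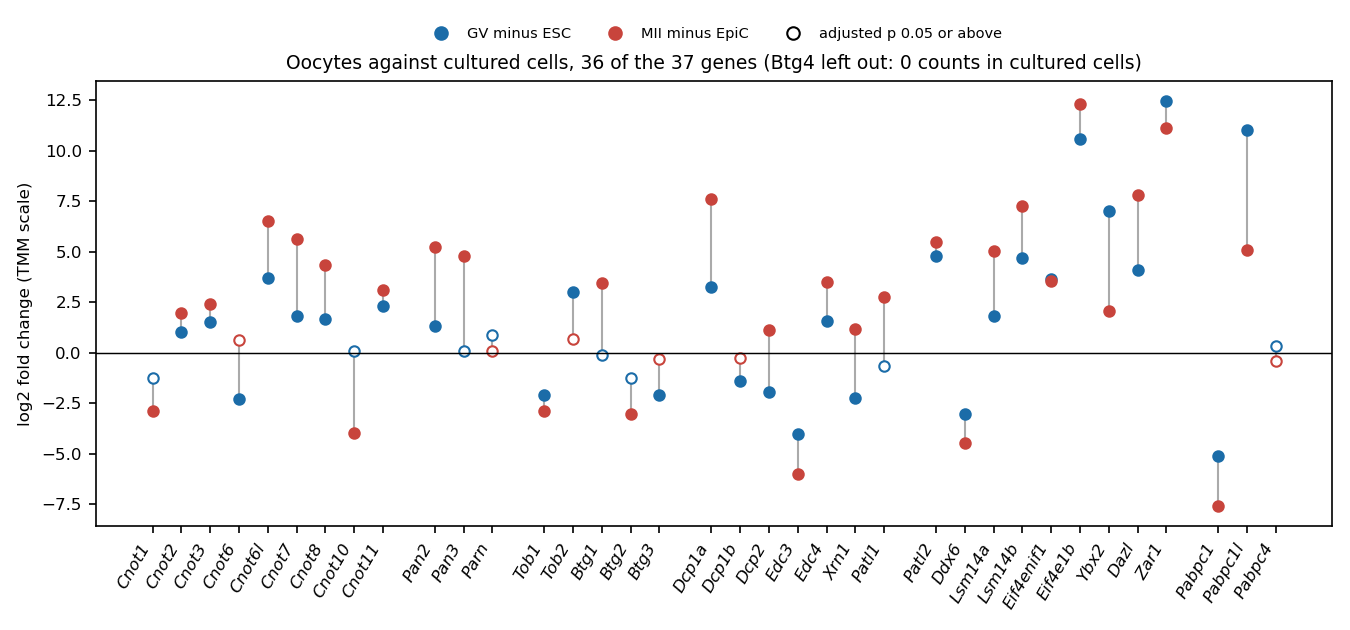
Log2 fold change of GV against ESC and of MII against EpiC for 36 of the 37 genes, joined by a line per gene; open points have an adjusted p of 0.05 or above. Storage genes other than Ddx6 lie above 0 in both, Pabpc1 lies at −5.13 and −7.57, and Pan3 goes from 0.1 to 4.81.

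Within some pairs of related genes, the shares of summed TPM show such an exchange, and they do not depend on the scaling between libraries. Cnot6l was 92.4% to 95.8% of Cnot6 and Cnot6l together in oocytes and 15.8% to 19.3% in cultured cells. The share of Cnot7 within Cnot7 and Cnot8 did not separate the cell types in the same way, at 73% and 53.5% in GV, 82.5% and 81% in MII, and 54.3% to 66.1% in cultured cells. Lsm14b was 66.9% to 86.3% of the LSM14 pair in oocytes and 27% to 33.5% in cultured cells.

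For 4 oocyte forms the share fell from GV to MII without reaching the level of cultured cells. Patl2 was 73.5% and 84.6% of the Patl pair in GV and 13.9% and 15.4% in MII, against 2.58% to 9% in cultured cells. Eif4e1b was 79.9% and 87.1% of the pair with Eif4e, the general cap-binding protein, in GV and 59.2% and 63.4% in MII, against at most 0.86% in cultured cells. Pabpc1l went from 91.8% and 90.8% of the pair with Pabpc1 to 71.2% and 77.6%, against at most 0.26%. Counting coding transcripts alone, the Pabpc1l share was 93.7% and 94.1% in GV and 89.7% and 86.9% in MII. Ybx2 went from 48.7% and 37.3% of the 3 Y-box genes Ybx1, Ybx2 and Ybx3 to 18.2% and 18.6%, against at most 1.63% in cultured cells, where Ybx1 stood at 709 to 1166 TPM.

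**Figure D5:**
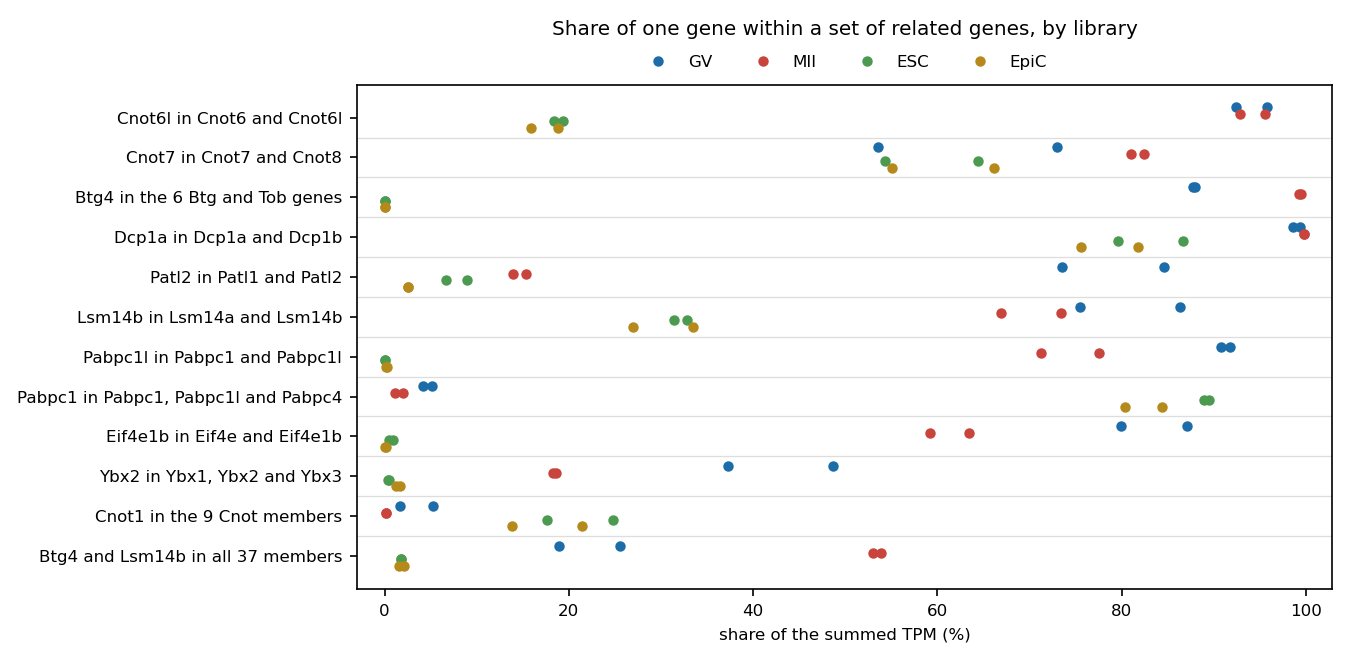
Share (%) of one gene in the summed TPM of a set of related genes, 1 point per library, with colours for GV, MII, ESC and EpiC. Cnot6l, Btg4, Pabpc1l and Eif4e1b separate oocytes from cultured cells, and Patl2 lies at 73.5% and 84.6% in GV but 13.9% and 15.4% in MII.

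Summed over the 37 genes, TPM was 8850 and 9347 in GV, 17240 and 15680 in MII, 2790 and 2412 in the ESC libraries, and 3003 and 2061 in EpiC. Btg4 and Lsm14b alone made up 53.9% and 53% of the MII sum, 18.9% and 25.6% of the GV sum and at most 2.09% in cultured cells. The storage genes summed to 5606 and 6265 TPM in GV and 5302 and 5877 in MII, against 251 to 378 in cultured cells, so the GV and MII ranges of this role's sum overlapped while Lsm14a and Lsm14b rose and Ybx2 and Patl2 fell.

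Transcript models differed as well. Among the 24 genes with more than 1 transcript tested, 11 (45.8%) had a different most abundant transcript in oocytes and in cultured cells, against 31.1% of 13914 such genes over all genes tested. Some of the 11 rest on low levels or near ties, such as Eif4e1b and Pabpc1l in cultured cells, Edc3 in oocytes, and Pabpc1, whose first 2 transcripts held 37.9% and 36.4% in oocytes. Among the 20 with at least 1 TPM in every library it was 8, against 24.3% of such genes. The clearest case was Cnot7. The transcript Cnot7-006, whose first exon lies at chr8:40515704-40515847 on the minus strand, held 74.9% and 70.9% of Cnot7 TPM in GV and 71% and 68.4% in MII, but at most 7.42% in cultured cells. In cultured cells Cnot7-001, whose first exon lies at chr8:40511540-40511754, held 38.9% to 54.1%, against 0% in GV and 6.31% and 0.56% in MII. Both encode a reading frame of 855 bases and differ in their 5′ ends.

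Pabpc4 also changed form. Pabpc4-008, a noncoding transcript of 245 bases that starts upstream of the coding transcripts at chr4:123262351, held 56% to 69.8% of Pabpc4 TPM in oocytes and at most 0.18% in cultured cells. The Pabpc4 level in oocytes given above is therefore mostly this noncoding model, and with an offset for transcript length Pabpc4 was 0.98 in MII against EpiC (adjusted p = 0.0225) where the value on summed counts was −0.43 ± 0.35. Ybx2-005, a retained-intron model, held 46.4% and 39.4% of Ybx2 TPM in replicate 1 of GV and MII and 0.13% and 0% in replicate 2, so the Ybx2 transcript split follows the replicate number. The error of assigning reads to transcripts is unknown, since the tables give estimates alone.

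In the test of transcript usage (diffSpliceDGE of edgeR with Simes p-values), 2 of the 24 genes changed between GV and MII, where 5.52% of 11953 genes did. Cnot7 passed (adjusted p = 0.00025), led by the rise of Cnot7-001 from 0 TPM in both GV libraries to 106 and 5.47 TPM in MII. Pan3 passed (adjusted p = 0.0114) through the fall of the retained-intron model Pan3-007, from 0.99 and 0.22 TPM to near 0, and was lost without either MII library. Between ESC and EpiC 1 gene changed, where 0.092% of genes did: Cnot6l (adjusted p = 0.0106), through Cnot6l-002, a transcript annotated for nonsense-mediated decay at 0.26 and 0.3 TPM in ESC and near 0 in EpiC. This call was lost without ESC replicate 2, without either EpiC library and without either MII library.

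Other genes of the same pathways, 72 in 8 lists of which 70 could be tested, did not all follow. Against ESC, 22 of the 70 were higher in GV and 23 lower, beside 28.3% and 31.3% of all genes. Against EpiC, 25 were higher in MII and 29 lower, beside 28.5% and 39.6%. Between GV and MII 21 of the 70 were higher and 19 lower, beside the 17.4% and 22.2% of all genes. Among 8 further deadenylase and CCR4-NOT genes 5 rose and 2 fell. Angel2, a deadenylase relative, was 120 and 70 TPM in GV and 462 and 357 in MII (3.31 ± 0.4, edgeR adjusted p = 0.000545). Noct, a relative of the Ccr4 nucleases, was 89.3 and 82.8 TPM in GV and 417 and 449 in MII (3.29 ± 0.4, edgeR adjusted p = 0.000558). Toe1 fell by 4.19 ± 0.5 and Rqcd1, the CCR4-NOT subunit now called Cnot9, fell by 1.75 ± 0.31 (edgeR adjusted p = 0.00193), from 44.9 and 38.2 TPM to 5.29 and 5.6 TPM.

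Partners of poly(A) binding protein moved apart. Paip1, which promotes translation with it, was 379 and 369 TPM in GV and 2463 and 1925 in MII (3.9 ± 0.45, edgeR adjusted p = 0.000545). Paip2, which displaces it from the tail, was 637 and 439 TPM in GV and 9.49 and 11.5 in MII (−4.53 ± 0.4, edgeR adjusted p = 0.000518). The 2 groups of libraries were far apart for both genes. Of the 13 poly(A) and cap binding genes tested, 4 rose and 2 fell.

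In the ring of Lsm1 to Lsm7 proteins, which binds deadenylated mRNA ends with PATL1, 1 of 7 rose and 3 fell. Lsm1, the subunit that sets the cytoplasmic ring apart from the nuclear one, was the riser, at 37.7 and 37.6 TPM in GV and 58.9 and 62.5 in MII (1.86 ± 0.32, edgeR adjusted p = 0.00167). Lsm4 fell by 3.66 ± 0.65, Lsm6 by 3.46 ± 0.47 and Lsm3 by 2.12 ± 0.35. Of 15 exosome and Ski genes, which degrade mRNA from its other end, 5 rose and 5 fell, with Exosc1 at 57.2 and 50 TPM in GV and 0.26 and 1.37 in MII and Exosc3 at 57.9 and 83.6 TPM in GV and 150 and 165 in MII.

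Of 7 further Y-box and storage genes 0 rose and 4 fell with edgeR, with 2 higher at an unadjusted p under 0.05, 2 called higher by DESeq2 and 0 by limma on log2(TPM + 1). Zar1l, the relative of Zar1, was 701 and 909 TPM in GV and 6.77 and 20.3 in MII (−4.71 ± 0.69, edgeR adjusted p = 0.00115), unlike Zar1 itself. Ybx3 was 555 and 683 TPM in GV and 18.8 and 28.9 in MII (−3.55 ± 0.46, edgeR adjusted p = 0.000627). Of 8 further decapping and 5′ decay genes 3 rose and 3 fell, with Upf1, the helicase of nonsense-mediated decay, at 18.7 and 57.6 TPM in GV and 262 and 478 in MII. Among 10 proteins that recruit CCR4-NOT 3 rose and 0 fell with edgeR (0 also at an unadjusted p under 0.05 and with DESeq2, 2 with limma on log2(TPM + 1)), led by Pum2 at 36 and 13 TPM in GV and 151 and 93.5 in MII (3.24 ± 0.52, edgeR adjusted p = 0.00129). Neither of the uridyl transferases Zcchc11 and Zcchc6 was called by edgeR between GV and MII (1 was lower at an unadjusted p under 0.05, 1 was called lower by DESeq2 and 0 by limma on log2(TPM + 1)), and both were lower in oocytes than in cultured cells in both comparisons. EpiC differed from ESC in 2 of the 70, both higher: Eif4e3 (3.35 ± 0.53, edgeR adjusted p = 0.00804) and Samd4 (3.29 ± 0.54, edgeR adjusted p = 0.0101).

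Across all 4 groups, the change from GV to MII differed from the change from ESC to EpiC in 21 of the 37 genes. Of these 16 were higher in the difference, where 13.2% of all genes tested were, and 5 lower, against 16.4%, with 29.7% of all genes called. The share of calls higher in this difference over all genes was 44.6% with TMM, 13.8% with library size alone and 25.3% with limma on log2(TPM + 1). For Btg4 the difference could not be estimated, since both cultured groups are at 0 counts. The comparisons share libraries with each other, so their counts are not independent of one another.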

How the data were processed

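The deposited tables, 1 per library, hold estimated counts per transcript and TPM, which the authors made with kallisto 0.43 for mm10 per the submitters' processing notes. Transcript lengths are in the same deposited tables. The annotation release of the index is not stated there or in the labels. Libraries were stranded and paired-end from TRIzol RNA, per the labels' protocols.

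Estimated counts were summed per gene by symbol and rounded, filtered with filterByExpr, scaled by TMM and fitted with edgeR 4.0.16 (R 4.3.3) in a quasi-likelihood model of all 8 libraries with 4 residual degrees of freedom. Contrasts were tested with glmQLFTest and adjusted over 25045 genes by Benjamini-Hochberg at 0.05. Any adjusted p of a gene comes from this test unless another is named. The SE is an approximation, |log2 fold change| divided by the root of the F statistic. The scripts were tested on simulated data. Transcript usage was tested with diffSpliceDGE. Alternatives used DESeq2 1.42.0 and limma 3.58.1 on log2(TPM + 1). 3′ ends were read from GENCODE M21 transcripts by transcript ID (same length as in the tables for 27 of 36), and a CPE alternative used the last 200 bases.

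Any of the 37 genes may be named; of the 8 other lists, up to 3 called genes per direction and comparison with the largest fold changes. The genes, lists and motif search were chosen with earlier results of these data known.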

Additional observations from a re-analysis of the deposited data

Results flagged for a closer look

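For 21 of the 37 genes the change from GV to MII differed from the change from ESC to EpiC, by the edgeR test of the difference itself (log2, MII minus GV less EpiC minus ESC). In CCR4-NOT the differences were 2.92 for Cnot6 (adjusted p = 0.00496), 2.81 for Cnot6l (0.0131), 3.81 for Cnot7 (0.00362), 2.64 for Cnot8 (0.00471) and −4.05 for Cnot10 (0.0155). Pan2 gave 3.94 (adjusted p = 0.00146) and Pan3 4.71 (0.00125). Btg1 gave 3.58 (adjusted p = 0.00283) and Tob2 −2.29 (0.0107). Among decapping genes the values were 4.36 for Dcp1a (adjusted p = 0.0013), 3.07 for Dcp2 (0.00402), 1.93 for Edc4 (0.0307), 3.40 for Xrn1 (0.00564) and 3.42 for Patl1 (0.00266). Among storage genes they were 3.19 for Lsm14a (adjusted p = 0.00331), 2.59 for Lsm14b (0.00876), 1.75 for Eif4e1b (0.0446), −4.92 for Ybx2 (0.00116) and 3.70 for Dazl (0.00425). The Eif4e1b value turned to −1.43 with limma on log2(TPM + 1) (adjusted p = 0.012) and was 0.35 with library size alone (adjusted p = 0.701). Its call was lost in 12 alternatives, 7 of which left out a single library. Pabpc1 gave −2.45 (adjusted p = 0.0373) and Pabpc1l −5.94 (0.00454). The Edc4 call was lost in 6 alternatives, with a value of 0.49 with library size alone. Pabpc1 lost its call in 5 alternatives that each left out a single library. Cnot6, Cnot6l, Cnot8 and Lsm14b lost theirs with library size alone, and Dcp2, Xrn1 and Lsm14b with limma on log2(TPM + 1). Dcp2, Dazl, Eif4e1b, Pabpc1l and Ybx2 also had log2 fold changes beyond 1 in size between ESC and EpiC, of which those of Eif4e1b and Ybx2 passed the test.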

How the results depend on the processing

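Of the genes called, 18 of 28 for MII against GV, 0 of 3 for EpiC against ESC, 22 of 29 for GV against ESC, 24 of 31 for MII against EpiC and 12 of 21 for the difference were called in each alternative. There were 18 alternatives, of which the compared groups alone does not apply to the difference. Relative to TMM, library size alone moved the median log2 fold change of MII against GV by −1.42, limma on log2(TPM + 1) by −0.61 and relative log expression by 0.21.

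With library size alone, MII against GV gave 1719 genes higher and 10494 lower, MII against EpiC 13 of the 37 lower and 4431 genes higher, and the difference 10 and 14 of the 37 higher and lower and 1284 and 8029 of all genes. Signs turned there for Eif4enif1 in MII against GV (−1.08) and in MII against EpiC for Cnot6 (−1.21), Parn (−1.77), Tob2 (−1.15), Dcp2 (−0.71) and Xrn1 (−0.69). With limma on log2(TPM + 1), MII against GV gave 11 of the 37 and 2408 of all genes higher, MII against EpiC 4703 higher, EpiC against ESC 1287 and 1538, and the difference 9 of the 37 and 7600 of all genes lower. Signs turned there for Zar1 in MII against GV (−0.85), for Parn (−1.18), Dcp2 (−0.10) and Xrn1 (−0.30) in MII against EpiC, and for Patl2 (−1.46) and Eif4e1b (−1.43) in the difference. A transcript length offset turned Pabpc4 in MII against EpiC (0.98). Sign changes with no call on either side numbered 12, 45, 14, 10 and 13 in the order of the first sentence.

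EpiC against ESC gave 3 and 4 of the 37 higher and lower with no count filter (1303 and 1277 of all genes), with DESeq2 (1519 and 1416) and with the replicate block, 2 and 4 with protein-coding transcripts alone, and 0 and 0 with the compared groups alone (1 and 5 at an unadjusted p under 0.05, 355 genes higher). No count filter gave 9 of the 37 lower in the difference, against 5 with the filter. The share over all genes is not given for it, so nothing is read from this count.

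The labels number replicates 1 and 2 in each group. Deviations of same-numbered libraries correlated at 0.31 for GV and MII and 0.712 for ESC and EpiC, and at −0.0154 to 0.0143 for the other pairs. Same-numbered ESC and EpiC libraries thus shared deviations, though over 2 numbers alone. The labels do not say what a number stands for, so the main model did not treat the samples as paired. The calls between ESC and EpiC depend on this choice, as the counts with the replicate block above show. With the replicate block transcript usage changed in 3 of the 24 genes between GV and MII.

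Leaving out single libraries gave, of the 37, 15 to 18 higher and 7 to 10 lower for MII against GV, 0 to 1 and 1 to 3 for EpiC against ESC, 17 to 21 and 7 to 9 for GV against ESC, 22 to 24 and 6 to 7 for MII against EpiC, and 14 to 16 and 4 to 6 for the difference. Over all genes it gave 3239 to 4552 and 3769 to 5728, 135 to 572 and 274 to 684, 5659 to 7927 and 4922 to 8280, 6526 to 7314 and 7018 to 9680, and 2480 to 2948 and 2452 to 3908, in the same order. Usage changes were 1 to 2 for MII against GV and 0 to 2 for EpiC against ESC. A lone library is then assumed to vary like the other groups.

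Of coding genes with a CPE, 41.6% were higher in MII with a window of 200 bases, 49.6% among transcripts with a hexamer and 44% among those of equal length in tables and annotation, and of those without a CPE 18.4%, 21% and 19.2%; these alternatives were chosen after seeing the data.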
